A study of Mus musculus with 8 samples.

Results

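The C2H2 zinc finger gene clusters described here lie on mouse chromosome 2 between 174.5 and 178 Mb and on chromosome 7 between 41 and 44 Mb, in GRCm38 coordinates. All loops of the deposited count table with both anchors inside one of these windows were taken, whatever their counts. This gave 642 of 415681 loops, 104 on chromosome 2 and 538 on chromosome 7. They join 89 of 30044 anchors, 43 on chromosome 2 and 46 on chromosome 7. A loop here is a pair of merged 5 kb bins (anchors) with the number of read pairs that link them, and 19 of the 642 loops link bins inside a single anchor.

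The counts come from H3K27ac HiChIP, in which chromatin cut with micrococcal nuclease is ligated in proximity and fragments that carry acetylated histone H3 lysine 27, a mark of active promoters and enhancers, are immunoprecipitated and sequenced in pairs of 150 bp reads. The cells were mouse embryonic stem cells grown in serum with LIF and inhibitors of MEK and GSK3, with 1 line for each of 4 genotypes and 2 technical replicates a line. The B6 line was C57BL/6J and the D2 line was DBA/2J. B6-13D2 denotes strain B6.D2-(rs30079041-rs51756099)/Bakr, a C57BL/6J background with a chromosome 13 interval from DBA/2J. D2-13B6 is the reciprocal DBA/2J congenic with the C57BL/6J interval, whose distal marker is rs51756099 in the series design and another marker in the sample labels. By these strain names both clusters carry the allele of the background in all 4 lines, and the interval differs elsewhere in the genome. Each line is a single cell line, so p-values measure the spread between technical replicates, and a difference between genotypes cannot be told apart from one between these lines.

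Large families of zinc finger genes lie side by side in mammalian genomes, having arisen by repeated tandem duplication. Most of their proteins join a KRAB domain, which recruits the corepressor TRIM28 and through it the histone methyltransferase SETDB1, to an array of DNA-binding fingers. In embryonic stem cells such proteins are known for silencing endogenous retroviruses, and their gene clusters vary in copy number and sequence between mouse strains.

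The chromosome 2 window holds 45 protein-coding genes, of which 36 encode at least 3 C2H2 fingers (3 to 25, median 13). Of these 36 genes, 16 had a start in or within 5 kb of an anchor of the cluster and 7 lay at an anchor with enough counts to test. The chromosome 7 window holds 16 such genes (7 to 23 fingers, median 11.5), and all 16 had an anchor at the start by the same rule, 15 of them tested. It also holds 16 kallikrein genes, which encode secreted serine proteases, with 3 at an anchor. None of its 7 vomeronasal (pheromone) receptor genes had an anchor at the start, though the bodies of Vmn2r57, Vmn2r58 and Vmn2r62 each held part of one, and among 4 genes of the Siglec family of sialic acid-binding receptors only Siglecf had one at its start.

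The promoters showed how closely the genes of each cluster resemble each other in sequence. The 250 bases before the RefSeq start (GRCm38.p6) were at hand for 39 of the 52 zinc finger genes. Between promoters of the chromosome 2 cluster the median local alignment held 201 matching bases, and 267 of 325 pairs reached 150. On chromosome 7 the median was 12 matching bases, yet 10 of 78 pairs reached 150, and no pair across the clusters did (at most 107). The sequences shown were picked because the anchors at these genes carry the differences described further on, together with near copies of them. They are written 5′ to 3′ on the gene's strand, with each CCAAT, or ATTGG on the other strand, in capitals. Zfp936 (chr7:43177340-43177589, plus strand), Zfp976 (chr7:42642605-42642854, minus strand) and Zfp975 (chr7:42692719-42692968, minus strand) belong to the similar chromosome 7 promoters. Zfp141 (chr7:42505754-42506003, minus strand) does not. Gm14403 (chr2:177497976-177498225, plus strand) and Zfp970 (chr2:177464492-177464741, plus strand) are from the chromosome 2 cluster.
Zfp936: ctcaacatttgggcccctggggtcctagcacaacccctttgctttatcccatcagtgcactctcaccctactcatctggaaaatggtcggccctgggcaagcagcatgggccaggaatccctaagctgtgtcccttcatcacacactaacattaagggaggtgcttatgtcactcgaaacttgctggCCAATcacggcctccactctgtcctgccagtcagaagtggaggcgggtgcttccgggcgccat
Zfp976: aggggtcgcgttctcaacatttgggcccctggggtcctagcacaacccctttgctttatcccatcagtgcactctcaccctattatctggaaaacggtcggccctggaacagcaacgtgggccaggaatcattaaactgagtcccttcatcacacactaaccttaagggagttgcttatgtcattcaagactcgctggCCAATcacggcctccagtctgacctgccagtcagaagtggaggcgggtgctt
Zfp975: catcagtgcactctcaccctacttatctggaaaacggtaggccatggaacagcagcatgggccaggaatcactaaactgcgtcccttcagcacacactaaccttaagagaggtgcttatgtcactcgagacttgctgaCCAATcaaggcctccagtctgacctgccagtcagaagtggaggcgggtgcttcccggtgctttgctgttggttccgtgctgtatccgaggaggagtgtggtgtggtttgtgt
Zfp141: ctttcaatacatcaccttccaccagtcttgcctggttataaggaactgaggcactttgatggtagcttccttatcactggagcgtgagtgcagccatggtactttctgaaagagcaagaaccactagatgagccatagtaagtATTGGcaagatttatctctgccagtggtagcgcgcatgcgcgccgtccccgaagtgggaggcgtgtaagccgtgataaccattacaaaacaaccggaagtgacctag
Gm14403: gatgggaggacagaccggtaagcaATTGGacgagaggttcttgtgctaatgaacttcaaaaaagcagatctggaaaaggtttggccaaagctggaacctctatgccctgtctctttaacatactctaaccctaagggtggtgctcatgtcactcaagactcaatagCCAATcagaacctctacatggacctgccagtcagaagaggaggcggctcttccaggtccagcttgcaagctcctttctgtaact
Zfp970: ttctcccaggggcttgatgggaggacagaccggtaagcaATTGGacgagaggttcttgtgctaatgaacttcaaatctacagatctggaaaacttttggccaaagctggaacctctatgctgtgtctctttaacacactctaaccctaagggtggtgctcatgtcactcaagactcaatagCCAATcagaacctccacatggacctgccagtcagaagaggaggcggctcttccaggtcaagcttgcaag

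Zfp976 and Zfp936 shared 219 aligned bases and Zfp975 and Zfp936 shared 178, while Zfp141 shared 14 with each of these 3. The closest promoter to that of Zfp141 was that of Zfp719, also on chromosome 7, with 136 matching bases. Gm14403 and Zfp970 shared 224. CCAAT or ATTGG stood in 36 of the 39 promoters, 25 of 26 on chromosome 2 and 11 of 13 on chromosome 7, against 34.5% of the 27025 promoters of the same length in the genome table. At least 2 copies stood in 25 of the 26 promoters on chromosome 2 (96.2%) and in 3 of the 13 on chromosome 7 (23.1%), against 10.5% of all. Most of the 26 resemble each other closely, but those of Gm14444 and Gm4631 do not. The GC box GGGCGG or CCGCCC was found in 2 of the 39, against 32.9% of all. The YY1 core AAGATGGCG or CGCCATCTT was in none of them and in 0.607% of all. These are letter matches on either strand and were not tested as binding sites.

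In the chromosome 2 cluster sequence similarity extended to the anchors themselves. Windows of 150 bases were taken every 50 bases, and the share found again elsewhere in GRCm38 had a median of 38.4% over the chromosome 2 anchors, 1.01% over the chromosome 7 anchors and 0% over anchors outside the clusters. At least 25% of windows were repeated in 33 of 43 anchors on chromosome 2. On chromosome 7 this held for 5 of 46 (10.9%), near the 10.7% of the anchors outside the clusters. The reference has 450 kb of unsequenced bases (12.9%) in the chromosome 2 window and none in the chromosome 7 window. The part that reads with several matches, or DBA/2J reads set against the C57BL/6J reference, play in the counts was not tested.

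The libraries held 737955 to 1425304 counts over all loops, the deepest being both D2-13B6 libraries. Of 8 stem cell marker genes 7, Pou5f1, Nanog and Sox2 among them, had an anchor. Their sum per 1000000 counts of the library was 2722 to 3057 in B6, 2843 to 3023 in B6-13D2, 3335 to 3531 in D2-13B6 and 3103 to 3205 in D2, higher in all 4 D2-background libraries than in the other 4. Of 15 markers of fibroblasts, primitive endoderm, trophoblast, neural cells and mesoderm, 3 had an anchor, summing to 53.1 to 87.8 per 1000000. No marker of primitive endoderm, neural cells or mesoderm had an anchor, and neither had the stem cell gene Esrrb. Their counts of 0 are therefore not a measured absence. The 2 fibroblast markers with an anchor, Col1a1 and Col1a2, summed to 45.0 and 52.9 in B6-13D2 and to 61.7 to 79.4 in the other 6 libraries. Chromosome 11 held 13.9% and 13.96% of counts in the D2-13B6 libraries and 10.1% to 10.6% in the other 6. Its part in the results was not tested beyond a scaling of each chromosome by itself, under which 26 loops and 19 anchors of the clusters passed the background test described next.

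Loops of the chromosome 7 cluster took a smaller share of the library in both lines with DBA/2J background. Per 10000 counts the B6 libraries gave 15.4 and 17.5, those of B6-13D2 gave 17.4 and 15.1, those of D2-13B6 gave 11.8 and 11.2, and those of D2 gave 12.6 and 13.4. The line means were 16.4 ± 1.48 for B6, 16.3 ± 1.65 for B6-13D2, 11.5 ± 0.45 for D2-13B6 and 13.0 ± 0.58 for D2 (SD, n = 2 each). All 4 libraries with B6 background lay above all 4 with D2 background, and the lines within a background overlapped in B6 only. Without loops inside an anchor the backgrounds overlapped, with 13.2 in B6-13D2 replicate 2 and 13.7 in D2 replicate 2. The chromosome 2 cluster gave 0.935 and 1.03 per 10000 in B6, 1.59 and 1.23 in B6-13D2, 0.688 and 0.617 in D2-13B6, and 0.722 and 0.768 in D2. Here too the backgrounds did not overlap, and both B6-13D2 libraries lay above both B6 libraries. The sums were not tested, and in bulk libraries a contact made in fewer cells cannot be told apart from a weaker contact in all of them.

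**Figure D1:**
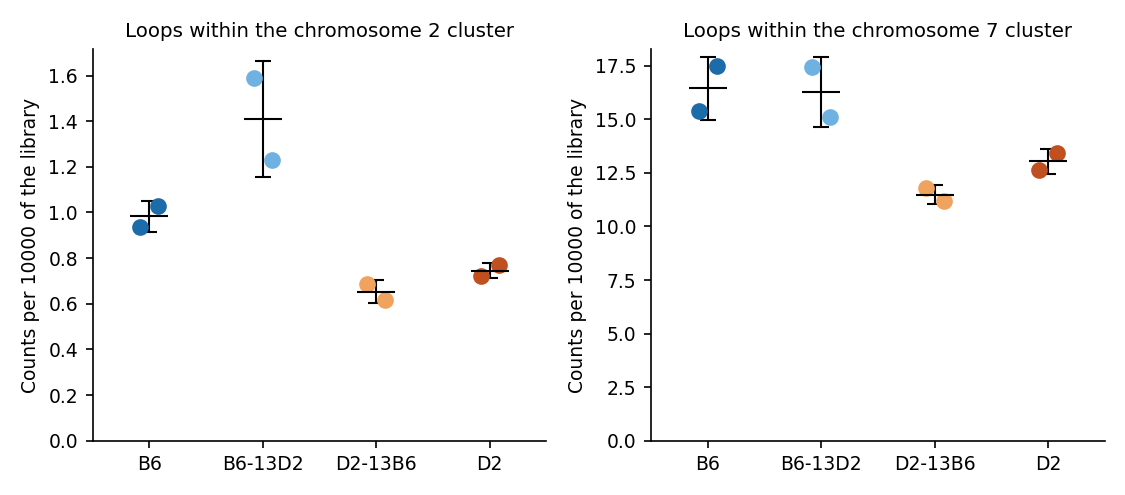
Counts in loops of each zinc finger cluster per 10000 counts of the library (vertical axis) for the 4 lines, with each point a library and the bar and whiskers the mean and SD of 2 libraries. On chromosome 7 the libraries of both lines with DBA/2J background lie between 11.2 and 13.4, and those with C57BL/6J background between 15.1 and 17.5.

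Counts per loop were low. Over all 8 libraries the median loop of the clusters held 3 counts and 195 of the 642 held a single count. Between 222 and 326 of the 642 loops had any count in a given library. Enough counts for a test (at least 5 in at least 2 libraries) were present in 85 loops, 6 on chromosome 2 and 79 on chromosome 7. Sums over all loops of an anchor could be tested (at least 10 in at least 2 libraries) for 44 anchors, 7 and 37. Since a loop or anchor may pass this filter only through the group where it is high, the counts of calls that follow are shares of the tested loops and anchors and not of all members. Levels are given as CPM, counts per 1000000 tested counts, scaled by edgeR's TMM factors.

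The background comparison contrasted the mean of both DBA/2J-background lines with the mean of both C57BL/6J-background lines. In the clusters 25 of 85 tested loops differed, 5 higher and 20 lower in D2 background, by edgeR's quasi-likelihood test with Benjamini-Hochberg adjustment over all loops. Over all 44706 tested loops 8.85% were called and 4.55% were called lower. The median log2 fold change was -0.48 over the 85 loops and 0.02 over all loops. Among anchor sums 19 of 44 differed, 1 higher and 18 lower, against 24.8% called and 12.9% called lower among all 21211 tested anchors. Their median log2 fold change was -0.33, against 0.01 over all anchors. DESeq2, which gave 40 of the loops and all 44 anchors an adjusted p, called 10 and 13. Shares over all loops and anchors are given for the main fit only. Without the filter on low counts 12 loops passed, and without D2 replicate 1 there were 14. The part of the stem cell marker sum, which was apart between the backgrounds too, was not tested.

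Calls fell both on anchors at zinc finger genes and on other anchors. Over all 21211 tested anchors 24.8% were called and 12.9% were called lower. The classes below hold few anchors and were not compared by a test. On chromosome 7, of the 14 tested anchors at a zinc finger gene start, 1 was higher and 6 were lower, and 3 of the 4 tested anchors inside a zinc finger gene body were lower. The anchors with other coding starts had 2 lower of 5, those with non-coding starts 2 of 5 and those with no start 3 of 9. On chromosome 2 all 7 tested anchors were at zinc finger gene starts, and 2 of them were lower. Among anchors with under 5% of repeated windows 1 of 31 was higher and 11 were lower, and among those with 5% or more none of 13 was higher and 7 were lower.

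**Figure D2:**
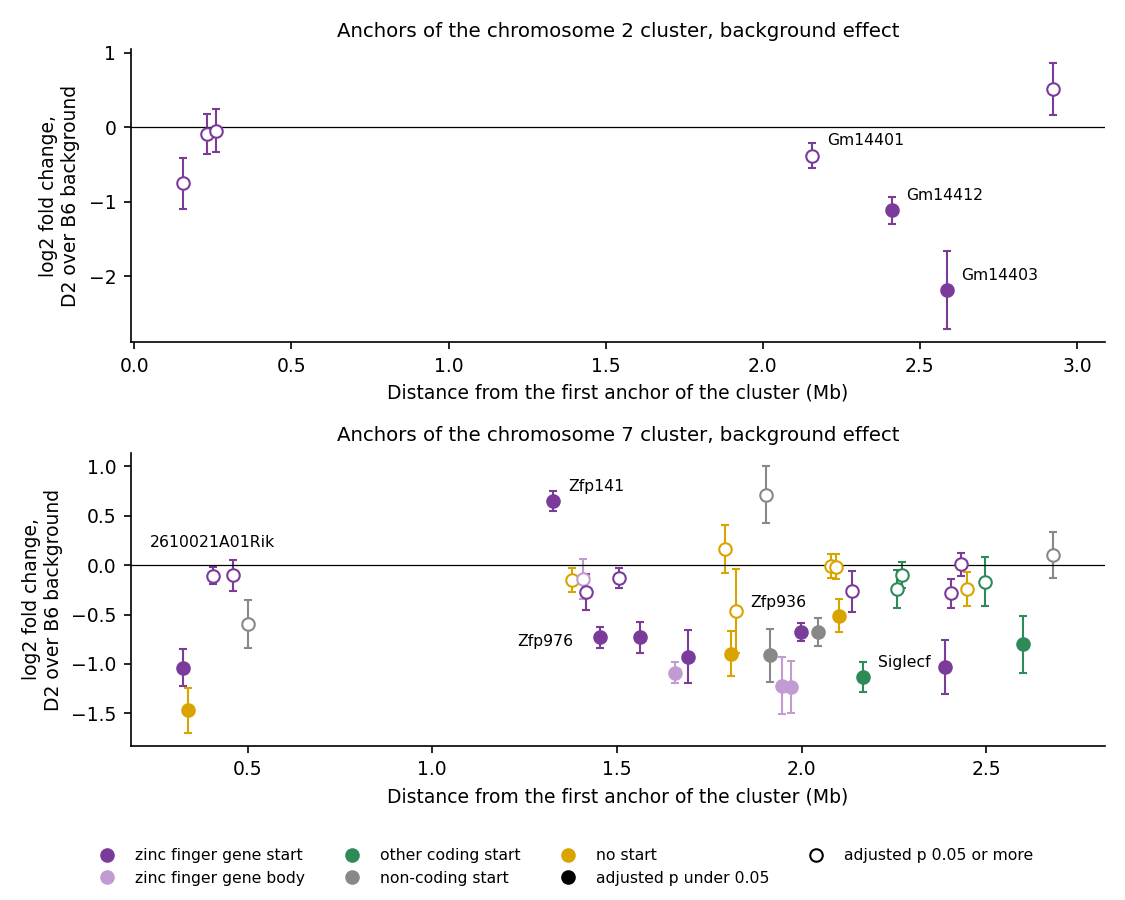
Log2 fold change of anchor sums, D2 over B6 background (vertical axis, with its standard error), against distance from the first anchor of each cluster in Mb, for the 7 tested anchors of chromosome 2 and the 37 of chromosome 7. Filled points passed at an adjusted p under 0.05, colours give what the annotation has at the anchor, and of the 18 lower anchors 16 lie on chromosome 7 and 2, Gm14412 and Gm14403, on chromosome 2, with Zfp141 the only one higher.

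The contact between the 2610021A01Rik and Zfp141 anchors, both at zinc finger gene starts, was the clearest of the loops higher in D2 background. The first anchor (chr7:41555001-41605000) also holds the start of Gm6871, another zinc finger gene, and the second (chr7:42490001-42515000) holds the Zfp141 start. From the end of the first anchor to the start of the second was 885 kb. The loop had 4 and 13 counts in B6 and 7 and 10 in B6-13D2. It had 131 and 140 in D2-13B6 and 91 and 122 in D2. Every library with D2 background was far above every library with B6 background. In CPM the means were 13.1 ± 11.5 in B6, 8.86 ± 0.28 in B6-13D2, 120 ± 4.22 in D2-13B6 and 162 ± 44.5 in D2 (SD, n = 2 each). The log2 fold change was 3.73 (SE 0.20, adjusted p = 1.05e-73), and the ratio of pooled rates was 13.2 (95% exact interval 9.32 to 19.3, for counting error only). The interval allele made no called difference, with log2 values of -0.44 (SE 0.51) in B6 background and 0.43 (SE 0.17, adjusted p = 0.285) in D2 background.

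This contact was narrow. In the 5 kb bins of the single libraries, the pair 41595001 to 41600000 with 42505001 to 42510000 held 31.3% of the loop's counts, and the pair 41600001 to 41605000 with 42500001 to 42505000 held 30.7%. The first pair had 32, 47, 43 and 40 counts in D2 replicates 1 and 2 and D2-13B6 replicates 1 and 2, and no count in any of the 4 libraries with B6 background. The second had 29, 44, 37 and 48 in the same order, and a single count over the 4 others, in B6 replicate 1. By the annotation used, 2610021A01Rik starts at 41599230 in one of these bins. The Zfp141 promoter printed above lies in 42505001 to 42510000.

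A gap of 640 kb without anchors, which holds several vomeronasal receptor genes, separates these genes. Per 1000000 counts of the library, loops across the gap summed to 56.7 and 94.9 in B6, 73.3 and 61.9 in B6-13D2, 137 and 136 in D2-13B6 and 170 and 210 in D2. Without the loop from 2610021A01Rik to Zfp141 the sums were 52.5 and 77.2, 66.2 and 54.5, 43.0 and 37.9, and 60.1 and 50.8 in the same order. The backgrounds were apart with this loop and overlapped without it. Loops right of the gap summed to 1052 to 1302 per 1000000 in the B6-background libraries and 760 to 889 in the others.

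The other 4 loops higher in D2 background had few counts or a small change. The Gm17067 anchor (chr7:42730001-42745000, a zinc finger gene) and the anchor at the non-coding gene Gm17768 (chr7:43075001-43080000) were linked by 11 and 9 counts in D2 and 10 and 9 in D2-13B6, and by none in B6 or B6-13D2. Against a floor of 3 counts over the 4 B6-background libraries the rate was at least 12.05-fold higher (adjusted p = 1.32e-09). This loop met the filter on low counts only through D2-background libraries, where it is high. Windows repeated elsewhere made up 3.36% of the first anchor and 15.3% of the second. The loop between chr7:42965001-42970000 and chr7:43250001-43260000, neither with an annotated gene, had 5 and 4 counts in D2, 4 and 6 in D2-13B6, none in B6 and 0 and 2 in B6-13D2. Its rate ratio was 8.81 (95% exact interval 2.13 to 78.0, adjusted p = 0.014). The link from 2610021A01Rik to the same chr7:43250001-43260000 anchor had 5, 3, 9 and 4 counts in D2 and D2-13B6 and 1, 0, 2 and 0 in B6 and B6-13D2, a ratio of 6.49 (1.94 to 34.0, adjusted p = 0.0301). Both of these links met the filter only through D2-background libraries, where they are high. Both sparse links lost the call without the filter on low counts and in some sets of 7 libraries, the first without B6 replicate 1 and the second without B6 replicate 2, D2 replicate 2 or B6-13D2 replicate 2. The last, inside the anchor chr7:42540001-42565000, rose by 0.66 on the log2 scale (adjusted p = 0.0311), and was named after its values were seen.

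**Figure D3:**
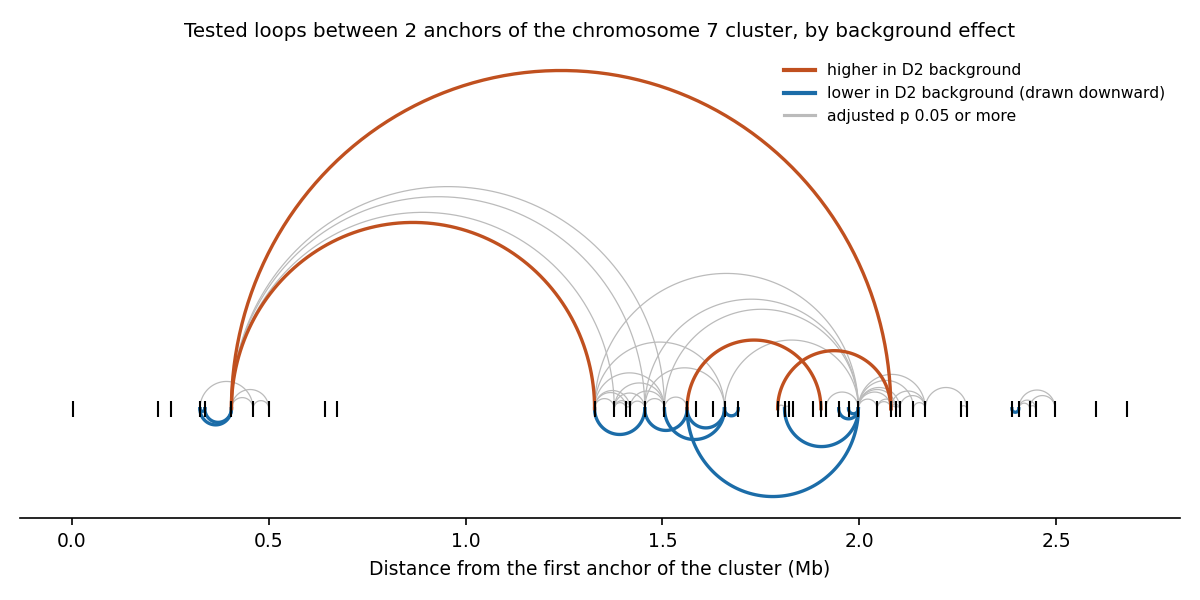
The 67 tested loops between 2 anchors of the chromosome 7 cluster, drawn as arcs between the anchors' centres by distance from the first anchor in Mb (horizontal axis, the height of an arc only follows its length), with ticks for all anchors. The 4 loops higher in D2 background are drawn upward in orange, the 13 lower downward in blue and those not called in grey.

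Loops lower in D2 background included contacts inside single anchors and 13 loops between anchors of chromosome 7, with spans of 12.5 to 435 kb. At Gm14412 (chr2:177315001-177335000), a chromosome 2 zinc finger gene, contacts within the anchor numbered 11 and 10 in B6, 31 and 19 in B6-13D2, and 0 in all 4 libraries with D2 background. The rate in B6 background was at least 25.5-fold higher than a floor of 3 counts over the D2-background libraries (adjusted p = 5.15e-18). This loop met the filter on low counts only through B6-background libraries, where it is high. The anchor still had 22, 23, 42 and 37 counts in D2 and D2-13B6 when its links to other anchors were summed. With contacts inside the anchor included, B6 had 34 and 48 counts and B6-13D2 had 87 and 91. This sum over all loops was 28.9 ± 10.9 CPM for B6, 48.6 ± 8.64 for B6-13D2, 17.8 ± 1.55 for D2-13B6 and 16.2 ± 1.81 for D2 (SD, n = 2 each). Its log2 fold change was -1.12 (SE 0.18, adjusted p = 2.23e-07), to which the inside contacts contribute. Repeated windows made up 2.26% of this anchor. Its best-covered partner was the anchor at Gm14401, a zinc finger gene, with 230 kb between the anchors' edges. That link had 17, 24, 36, 51, 19, 14, 32 and 33 counts in B6, B6-13D2, D2 and D2-13B6, 2 libraries each, with overlap between backgrounds (log2 -0.44, SE 0.22, adjusted p = 0.224).

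Gm14403, also on chromosome 2, had the steepest fall among the called anchor sums, at few counts. Its anchor (chr2:177490001-177510000) had 9 and 10 counts in B6 and 12 and 7 in B6-13D2, and 2, 4, 1 and 2 in D2 and D2-13B6. The anchor met the minimum of 10 counts in 2 libraries only through B6-background libraries, where it is high. The log2 fold change was -2.18 (SE 0.52, adjusted p = 0.00063), and the groups did not overlap. Repeated windows made up 11.8% of it. Gm14399 and Gm14443, zinc finger genes at the other end of the cluster, were linked by 82 counts over all libraries with no called difference (log2 0.07, SE 0.33).

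On chromosome 7 the fall within anchors was clearest at Zfp976 (chr7:42615001-42645000). Contacts inside this anchor numbered 39 and 43 in B6 and 47 and 51 in B6-13D2. They numbered 10 and 13 in D2-13B6 and 10 and 10 in D2. The mean CPM was 59.5 ± 15.2 in B6, 52.2 ± 8.48 in B6-13D2, 10.2 ± 1.76 in D2-13B6 and 15.1 ± 1.07 in D2 (SD, n = 2 each). No library of one background reached the range of the other, and the log2 fold change was -2.13 (SE 0.23, adjusted p = 1.6e-17). The sum over all loops of the anchor fell less, by 0.73 on the log2 scale (SE 0.11, adjusted p = 6.39e-08). The promoter of Zfp976 resembles that of Zfp936, printed above, and 1.00% of the anchor's windows were repeated elsewhere.

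At Zfp936 (chr7:43155001-43190000) contacts inside the anchor gave 112 and 132 CPM for B6, 116 and 124 for B6-13D2, 65.1 and 68.4 for D2-13B6, and 76.1 and 61.9 for D2. The backgrounds were apart and the lines within each overlapped (log2 -0.83, SE 0.14, adjusted p = 1.79e-07). The anchor sum fell by 0.68 (SE 0.09, adjusted p = 2.96e-09). The anchor chr7:42810001-42855000, which covers an exon of the zinc finger gene Gm2381, had inside contacts of 68.7 and 106 CPM for B6, 110 and 93.2 for B6-13D2, 27.7 and 33.3 for D2-13B6 and 56.0 and 44.5 for D2 (log2 -1.24, SE 0.16, adjusted p = 4.64e-12). Its sum fell by 1.09 (SE 0.11, adjusted p = 1.5e-14), the smallest adjusted p of any anchor sum in the clusters, and it had the most partners within them, 42. Repeated windows made up 13.6% of this anchor and 6.59% of the Zfp936 anchor.

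The left end of the cluster carried lower contacts too. AW146154, a zinc finger gene (chr7:41495001-41505000), and the neighbouring anchor without a start (chr7:41510001-41515000) were linked by 12 and 18 counts in B6 and 25 and 19 in B6-13D2, against 3 and 9 in D2-13B6 and 3 and 1 in D2. No D2-background library reached the lowest of the others (log2 -2.43, SE 0.37, adjusted p = 9.31e-09). Without B6-background libraries, where it is high, this loop would not have met the filter on low counts. Contacts inside the 2610021A01Rik anchor gave 224 and 265 CPM for B6, 385 and 347 for B6-13D2, 182 and 190 for D2-13B6 and 158 and 205 for D2. They were lower in D2 background (log2 -0.70, SE 0.10, adjusted p = 1.19e-09), while the same anchor's link to Zfp141 was higher. The sum over all its loops differed by -0.11 (SE 0.09, adjusted p = 0.409).

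Siglecf, which encodes a sialic acid-binding receptor and is no zinc finger gene, lies among these genes. Its anchor (chr7:43335001-43350000) gave 45.4 and 46.5 CPM for B6, 52.2 and 62.2 for B6-13D2, 20.2 and 24.8 for D2-13B6 and 19.0 and 30.4 for D2. All 4 D2-background libraries were below all 4 others (log2 -1.13, SE 0.15, adjusted p = 9.45e-10). None of its windows was repeated elsewhere in the reference.

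Among the 67 tested loops between anchors on chromosome 7, 13 were lower in D2 background, by 1.04 to 3.46 on the log2 scale. Over all tested loops, those inside an anchor included, 4.55% were called lower. Their spans ran from 12.5 to 435 kb. Of these 13 loops, 4 touched the Zfp936 anchor and 3 the anchor in Gm2381, a tally made after their values were seen. These anchors have many partners in the cluster (39 and 42). The tally was not set against the number of tested loops that touch them, so it shows no concentration there. The 4 loops between anchors that were higher spanned 288 to 1675 kb.

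**Figure D4:**
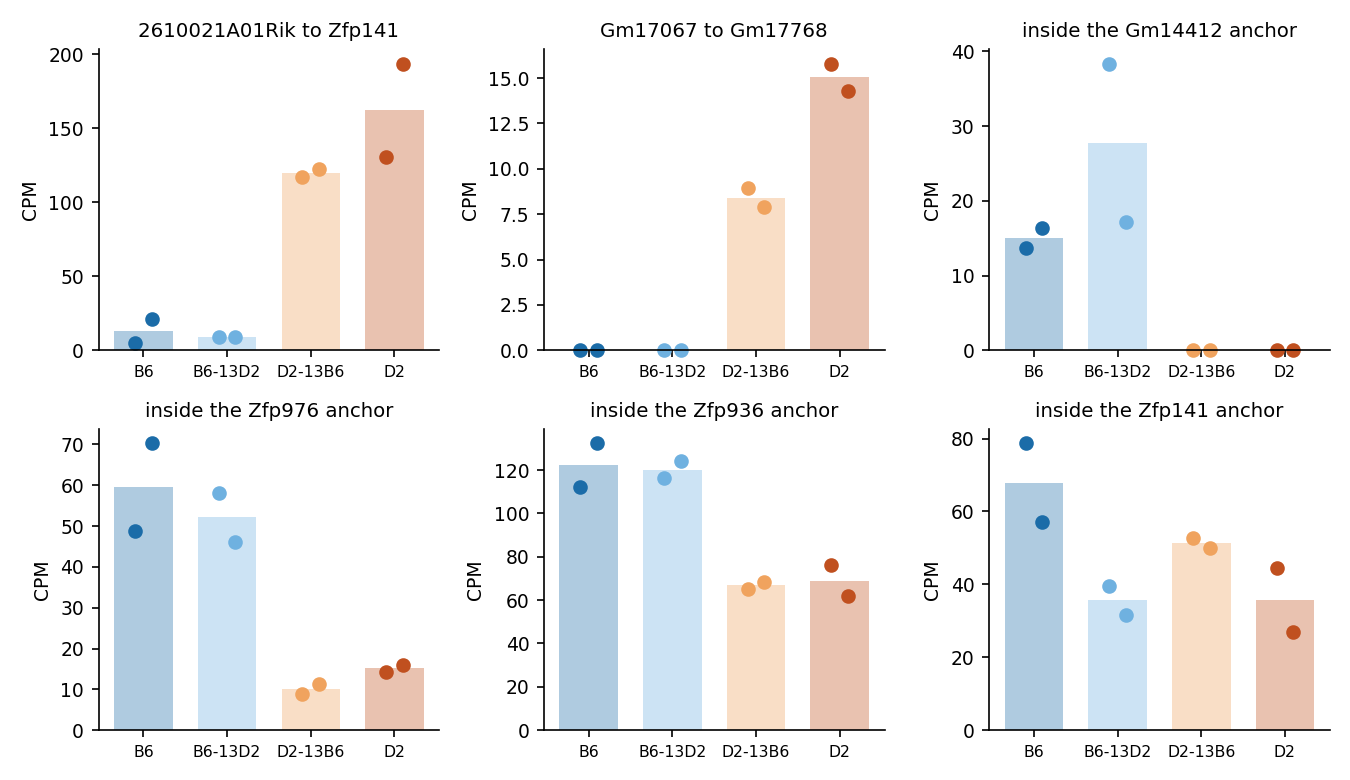
CPM of 6 loops named in the text for the 4 lines, with each point a library and each bar the mean of 2 libraries, all vertical axes starting at 0. The top row shows 2 contacts that are high in D2 background and the contact inside the Gm14412 anchor that is at 0 there, and the bottom row contacts inside single anchors, lower in D2 background at Zfp976 and Zfp936.

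The interval comparison asked whether the chromosome 13 allele changed contacts at these clusters on other chromosomes. In B6 background (B6-13D2 over B6) 2 of 85 loops and 5 of 44 anchors of the clusters differed by edgeR's quasi-likelihood test with Benjamini-Hochberg adjustment, against 0.859% of all loops and 5.27% of all anchors. In D2 background (D2 over D2-13B6) edgeR called 0 loops and 0 anchors, against 0.922% and 5.73% of all. At an unadjusted p under 0.05 there were 4 loops and 2 anchors in D2 background, and DESeq2 called 0 of the 2 loops and 6 anchors it gave an adjusted p. The effect averaged over backgrounds passed for 2 loops, against 0.986% of all, and 3 anchors, against 6.16%. DESeq2 called 1 loop and 2 anchors in B6 background and none for the average, of 2 loops and 13 anchors with an adjusted p. Without B6 replicate 1 the B6-background counts fell to 0 loops and 1 anchor, and the averaged ones to 0 and 0. Without B6-13D2 replicate 1 the B6-background counts were 1 loop and 3 anchors, and without B6-13D2 replicate 2 they were 1 and 4. The averaged calls also came to 0 loops without B6-13D2 replicate 2 or D2 replicate 2, and to 0 loops and 0 anchors without D2-13B6 replicate 1. In D2 background 1 loop passed in each set that left out a library with B6 background. The fibroblast marker sum was lowest in both B6-13D2 libraries, and its part in the B6-background calls was not tested.

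Zfp141 had the interval effect with the smallest adjusted p in the clusters. Its anchor sum was 119.5 and 111 CPM for B6 and 73.6 and 60.8 for B6-13D2. It was 138 and 133.5 in D2-13B6 and 127 and 152 in D2. The 2 B6-13D2 libraries were the lowest of the 8. With the D2 interval the sum in B6 background fell by 0.79 on the log2 scale (SE 0.15, adjusted p = 0.000174), and the value in D2 background was 0.04 (SE 0.13, adjusted p = 0.926). The test of the difference between them gave 0.83 (SE 0.20, adjusted p = 0.00447), the only interaction called among the 44 anchors, against 4.83% of all anchors. It did not pass without D2 replicate 2 (0.71), without B6-13D2 replicate 2 (0.69) or without the loop to 2610021A01Rik (0.57), and without B6 replicate 2 the number of anchors with a called interaction was 4. No loop of the clusters had a called interaction with edgeR (5 at an unadjusted p under 0.05) or among the 2 that DESeq2 gave an adjusted p, against 0.606% of all.

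The sum also differed by background, by 0.65 (SE 0.10, adjusted p = 8.74e-08), with no overlap between the backgrounds. Without the loop to 2610021A01Rik, an alternative added after the counts were seen, the background value was -0.27 and did not pass. The interval value in B6 background without that loop was -0.82 and still passed.

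Contacts inside the Zfp141 anchor numbered 63 and 35 in B6 and 32 and 35 in B6-13D2, and 59 and 57 in D2-13B6 and 31 and 17 in D2. In CPM the means were 67.9 ± 15.2 in B6, 35.6 ± 5.59 in B6-13D2, 51.3 ± 1.85 in D2-13B6 and 35.8 ± 12.4 in D2 (SD, n = 2 each), and in each background both libraries with the D2 interval were below both with the B6 interval. The averaged interval effect was -0.74 (SE 0.18, adjusted p = 0.0109), with -0.97 (SE 0.25, adjusted p = 0.0205) in B6 background and -0.50 (SE 0.27, adjusted p = 0.539) in D2 background. The averaged call was lost without B6 replicate 1, D2 replicate 2, B6-13D2 replicate 2 or D2-13B6 replicate 1, and without the filter on low counts. The B6-background call was lost without B6 replicate 1 or B6-13D2 replicate 2, without the filter, and with a replicate block (-0.93).

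The neighbouring anchor chr7:42540001-42565000, with no annotated gene, gave 77.8 and 70.1 CPM for B6, 52.2 and 45.8 for B6-13D2, 59.3 and 53.7 for D2-13B6 and 51.5 and 52.4 for D2. The B6 libraries were the highest of the 8. The interval value was -0.61 in B6 background (SE 0.17, adjusted p = 0.0153) and -0.37 averaged (SE 0.12, adjusted p = 0.0479). The averaged call was lost in 6 of the 8 sets that left out a library and under several other settings, and the B6-background call without B6 replicate 1 or B6-13D2 replicate 2, with DESeq2 and without loops inside an anchor (-0.53).

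The 2610021A01Rik anchor moved the other way. Its sum was 164 and 213 CPM for B6, 298 and 255.1 for B6-13D2, 201 and 209 for D2-13B6 and 196 and 240 for D2. Both B6-13D2 libraries were above the other 6. The interval value was 0.56 in B6 background (SE 0.12, adjusted p = 0.00189) and 0.09 in D2 background (SE 0.12, adjusted p = 0.788). Contacts inside the anchor rose by 0.59 in B6 background (SE 0.14, adjusted p = 0.00566). Both B6-background calls were lost without B6 replicate 1 and without B6-13D2 replicate 1, and that of the sum also without loops inside an anchor (0.33).

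On chromosome 2 the D2 interval went with higher sums in B6 background at Gm14401 and Gm14412. The Gm14401 anchor (chr2:177060001-177085000) gave 19.3 and 28.2 CPM for B6 and 42.2 and 41.1 for B6-13D2, against 22.9 and 27.1 for D2-13B6 and 23.05 and 22.8 for D2. The B6-13D2 libraries stood above the other 6 (0.83, SE 0.22, adjusted p = 0.0111). The Gm14412 anchor gave 21.2 and 36.6 in B6 and 54.7 and 42.5 in B6-13D2 (0.76, SE 0.21, adjusted p = 0.0167). Both lost the call without B6 replicate 1 or B6-13D2 replicate 1, and DESeq2 gave neither an adjusted p. Gm14412 also lost it without loops inside an anchor (0.71) and with library totals alone (0.65). In D2 background the values were -0.12 (SE 0.24) and -0.14 (SE 0.29), and the differences between backgrounds, -0.95 and -0.91, did not pass (adjusted p = 0.0703 and 0.134). Repeated windows made up 26.7% of the Gm14401 anchor.

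The link between Zfp976 and Zfp975, neighbouring genes with similar promoters, was the loop called higher with the D2 interval on average. It gave 27.5 and 22.9 CPM for B6, 38.4 and 38.0 for B6-13D2, 34.8 and 32.5 for D2-13B6 and 58.9 and 65.1 for D2. In each background the libraries with the D2 interval were higher. The averaged log2 value was 0.73 (SE 0.20, adjusted p = 0.0314), with 0.58 (SE 0.31) in B6 background and 0.88 (SE 0.25, adjusted p = 0.0567) in D2 background. The loop's counts were spread over 36 pairs of 5 kb bins, and the best-covered pairs went with the background. The first (12.7% of counts) had 0 and 0 in B6, 0 and 2 in B6-13D2, 7 and 11 in D2-13B6 and 7 and 7 in D2. The next (10.1%) had 2 and 0, 2 and 0, 7 and 5, and 3 and 8 in the same order. Leaving out any one of the 8 libraries ended the averaged call, as did leaving out the filter on low counts.

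**Figure D5:**
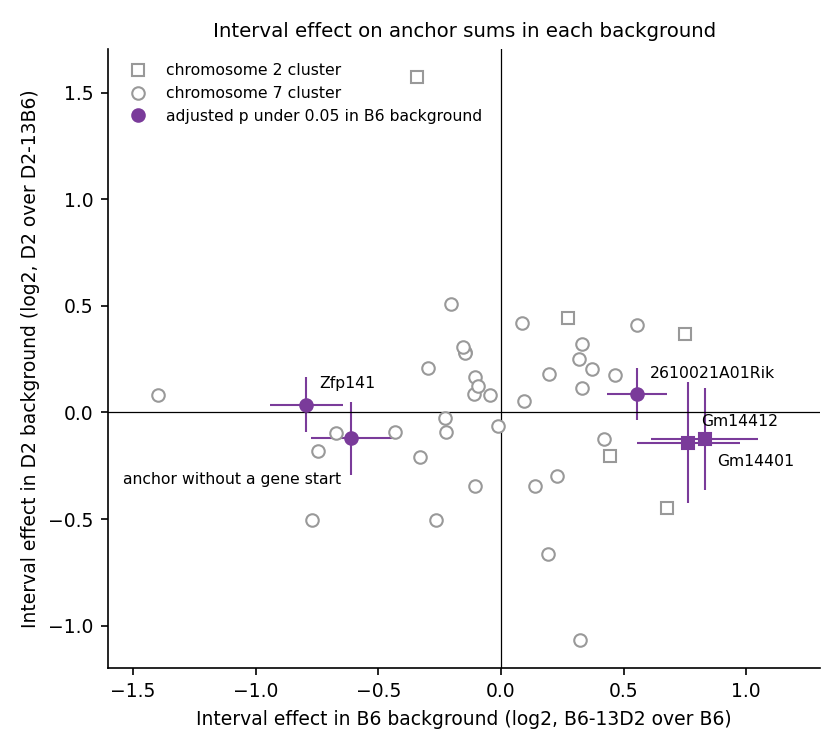
Interval effect on the 44 tested anchor sums of the clusters, log2 of B6-13D2 over B6 on the horizontal axis and log2 of D2 over D2-13B6 on the vertical axis, squares for chromosome 2 and circles for chromosome 7. The 5 filled anchors, with standard errors, passed in B6 background, where Zfp141 is at -0.79 and Gm14401 at 0.83, and their values in D2 background lie between -0.14 and 0.09.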

How the data were processed

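H3K27ac HiChIP counts of 8 libraries, 2 technical replicates for each of 4 lines, were used as deposited. The authors deposited whole-number read counts per loop, not normalized, in a table of the series and in 5 kb bin pairs per library, and the totals of both were equal. Per the submitters' processing notes BWA 0.7.18, SAMtools 1.19.2, edgeR 3.34.1 and build mm10 were used. The loop caller, the merging of bins and the placing of reads with several matches are not given in the sources used here. Library totals were 737955 to 1425304 counts, reads carry no molecular identifiers, and 95% intervals and floors of 3 counts cover counting error only.

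Loops (at least 5 counts in at least 2 libraries) and sums over all loops of an anchor (at least 10 in at least 2) were fitted over the whole table with edgeR 4.0.16 (quasi-likelihood, TMM factors, 1 mean per line, 8 libraries) in R 4.3.3, with Benjamini-Hochberg adjustment and a threshold of 0.05. The code of the fit was run on simulated counts, as a check of the code and not of these results. Alternatives were DESeq2 1.42.0, other scalings and filters, a replicate block, leaving out each library and leaving out loops inside an anchor.

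Named were, per cluster, the 3 loops with most counts and the called loops and anchors with the smallest adjusted p: up to 4 per direction for averaged effects where libraries did not overlap, up to 2 for effects in 1 background and for the interaction. The gene annotation was GENCODE's for GRCm38. Zinc finger genes were counted from the longest open reading frame of its transcripts, in place of the RefSeq proteins planned. The members and lists were chosen with earlier results of these data known.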

Additional observations from a re-analysis of the deposited data

Results flagged for a closer look

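The interval effect on the Zfp141 anchor sum (chr7:42490001-42515000) differed between the backgrounds. The D2 interval went with a lower sum in B6 background (log2 -0.79, SE 0.15) and the value in D2 background was 0.04 (SE 0.13). The difference was 0.83 (SE 0.20) with an adjusted p of 0.00447 by edgeR's quasi-likelihood test. In CPM, B6 gave 119.5 and 111, B6-13D2 73.6 and 60.8, D2-13B6 138 and 133.5, and D2 127 and 152. The difference did not pass without D2 replicate 2 (0.71), without B6-13D2 replicate 2 (0.69) or without the loop to 2610021A01Rik (0.57, adjusted p = 0.131).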

How the results depend on the processing

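Over 27 called values of named loops and anchors and the settings that could be run, 360 of 415 values kept direction and call, 54 lost the call and 1 changed sign. The sign change was the background value of the Zfp141 anchor, -0.27 without the loop to 2610021A01Rik. Counts of calls under the alternatives, here and above, are given without the shares over all loops and anchors under the same setting. They therefore do not show whether the clusters keep an excess of calls. Calls by DESeq2 numbered 10 for background loops, 1 loop and 2 anchors for the interval in B6 background, and 0 loops and 0 anchors for the averaged interval effect. Without a filter on low counts there were 12 background loops, 1 interval loop in B6 background and 0 averaged interval loops. The interval in D2 background had 1 loop with RLE factors, with library totals alone and with a stricter filter, and 1 anchor with library totals alone. Without loops inside an anchor the interval calls were 2 anchors in B6 background and 0 averaged. The mean shares per 10000 were then 1.07 (B6), 1.53 (B6-13D2), 0.831 (D2-13B6) and 0.898 (D2) on chromosome 2. On chromosome 7 they were 15.05 (B6), 14.2 (B6-13D2), 11.6 (D2-13B6) and 13.0 (D2). There the ranges of the backgrounds overlapped (11.3 to 13.7 in D2 and 13.2 to 15.9 in B6 background).

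Leaving out each library in turn gave 14 to 22 loops and 14 to 20 anchors for the background, 0 to 2 loops and 1 to 5 anchors for the interval in B6 background, 0 to 1 loops and 0 to 0 anchors in D2 background, 0 to 2 loops and 0 to 4 anchors for the averaged interval effect, and 0 to 0 loops and 0 to 4 anchors for the interaction. Deviations of same-numbered libraries correlated at -0.05 to 0.00 over loops and -0.16 to 0.03 over anchors, so the numbers do not pair the libraries. With the replicate block 1 loop passed for the interval in B6 background, and the other counts were 23 loops and 19 anchors for the background, 2 loops and 2 anchors for the averaged interval effect, 5 anchors in B6 background, none in D2 background, and 1 anchor for the interaction.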
